A study of Mus musculus with 6 samples.

Results

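The genes described here are the potassium channel genes of the array: every gene whose RefSeq symbol starts with Kcn, leaving out Kcnj8. They were found by matching the transcript accession of each probe that is not a control to RefSeq, which gave 97 genes with 155 probes, of 22911 genes named on the array. By symbol they fall into 40 voltage-gated pore and silent subunits, 14 inward rectifiers, 14 tandem-pore leak channels, 8 pores opened by calcium or sodium, 17 accessory subunits and 4 transcripts that encode no subunit (Kcnq1ot1, Kcnd3os, Kcnmb4os1 and Kcnmb4os2). Where a gene had several probes, as 40 did, the brightest on average over the arrays was used.

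The study measured RNA of mouse lung on 1-colour Agilent arrays, with 2 arrays for each of 3 groups, all from male animals. Myofibroblasts, the contractile matrix-producing cells of injured lung, were sorted as CD49e-positive, Sca1-negative and lineage-negative cells after bleomycin, a drug that induces lung fibrosis. The steady-state fibroblasts came from lungs with no treatment and were gated on CD140a, without lineage markers. Homogenates of whole lung, also untreated, served as controls. The sort gate and bleomycin changed together between the sorted groups, so they cannot be told apart. Whether both samples of each group were taken from different mice is not stated, so the p-values rest on the spread between samples that may be technical repeats. Strain, age and the dose and time of bleomycin are not given in the sources used here.

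Potassium channels let potassium leave the cell and so hold the membrane at a negative voltage, which sets how much calcium enters and, in muscle-like cells, how far the cell contracts. A voltage-gated channel is built of pore subunits, and silent subunits join them without forming a channel of their own. Inward rectifiers and tandem-pore channels carry the current at rest. The large-conductance BK channel, opened by calcium and voltage, takes on beta and gamma accessory subunits that alter how it opens. In smooth muscle of vessels and airways, BK channels with the beta1 subunit are known as a brake on contraction.

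Values are given as relative signal, the background-corrected signal of a probe divided by the 75th percentile of its array, so 1 means as bright as that percentile. Relative signals of different probes cannot be set against each other. Differences between groups are on the log2 scale with limma's SE (n = 2 arrays per group in every comparison), and a gene is called at an adjusted p under 0.05, with Benjamini-Hochberg adjustment over all genes tested. Testing required a probe well above background throughout 1 or more of the groups compared. The 75th percentile lay between 224 and 282 intensity units, the share of spots well above background between 65.5% and 73.4%, and 0 spots were saturated. The number of arrays limits the precision, and the arrays of a group differed by an SD of 0.58 for myofibroblasts, 0.88 for fibroblasts and 0.39 for homogenates (log2, all genes).

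The labels were read against marker genes first. The 6 fibroblast markers were above background on every array, with a summed relative signal of 899 and 929 in myofibroblasts, 501 and 363 in fibroblasts, and 41.8 and 36.4 in homogenates. Most of each sum was Col1a1 and Col1a2. In myofibroblasts Col1a1 was at 325 and 345 and Col1a2 at 507 and 514, in fibroblasts at 86.7 and 38.0 and at 194 and 160. Between the sorted groups Pdgfra and Dcn were instead called lower in myofibroblasts, and Pdgfrb and Lum were not called. The 5 endothelial markers summed to 0.211 and 0.136 in myofibroblasts, 0.298 and 0.291 in fibroblasts, and 52.4 in each homogenate, with Kdr and Tie1 below background on every sorted array. The 6 epithelial markers summed to 11.6 and 17.5 in myofibroblasts, 121 and 71.8 in fibroblasts, and 832 and 821 in homogenates. Most of the sorted sums was Scgb1a1, at 10.4 and 15.9 in myofibroblasts and 118 and 69.0 in fibroblasts. Cdh1 and Foxj1 were below background on every sorted array. Among the 6 leukocyte markers, 4 were called lower in myofibroblasts than in homogenate and 5 in fibroblasts, and Ptprc, the common leukocyte antigen, was above background on 1 myofibroblast array and on 0 fibroblast arrays. All 6 summed to 164 and 155 in myofibroblasts, 174 and 152 in fibroblasts, and 180 and 186 in homogenates. Most of each sum was Itgam, at 163 and 154 in myofibroblasts, 173 and 151 in fibroblasts, and 136 and 143 in homogenates, which was not called. Lyz2 was above background on both myofibroblast arrays and on 0 fibroblast arrays. The 4 mesothelial markers summed to 0.447 and 0.183 in myofibroblasts, 0.939 and 0.355 in fibroblasts, and 3.21 and 3.09 in homogenates, and 4 were called lower than homogenate in myofibroblasts and 3 in fibroblasts. Wt1 was above background on every array, Msln on 1 myofibroblast array, and Upk3b and Lrrn4 on no sorted array. The 6 markers of smooth muscle and pericytes summed to 41.0 and 52.8 in myofibroblasts, 1.99 and 2.36 in fibroblasts, and 10.3 and 13.0 in homogenates. Most of the myofibroblast sums was Des, at 30.6 and 42.4. Against homogenate, Cnn1, Des and Cspg4 were called higher in myofibroblasts. Myh11 was called lower, at -1.29 ± 0.31 (limma adjusted p = 0.0316), and Rgs5 and Notch3 were not called.

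Between the sorted groups 14 of 63 tested potassium channel genes passed the test. Of these, 3 were higher in myofibroblasts (Kcnmb1, Kcnmb2 and Kcnk5) and 11 lower. Kcnmb1 and Kcnmb2 are beta subunits of the BK channel, while the falls spread over voltage-gated pores, an inward rectifier, a leak channel, a sodium-activated pore and accessory subunits. Among all 16008 genes tested, 17.2% were called, 9.21% higher and 8.01% lower, against 22.2% of the potassium channel genes, 4.76% higher and 17.5% lower. Their median difference was -0.26, against -0.06 over all genes tested. Unadjusted p was under 0.05 for 27 of the 63 (42.9%, against 36.4% of all genes). The split into higher and lower depends on the scaling: it was 3 and 11 as given, 5 and 10 with either quantile normalization or median scaling, and 2 and 20 in the authors' deposited table, which shifted the median of all genes to -0.47.

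**Figure D1:**
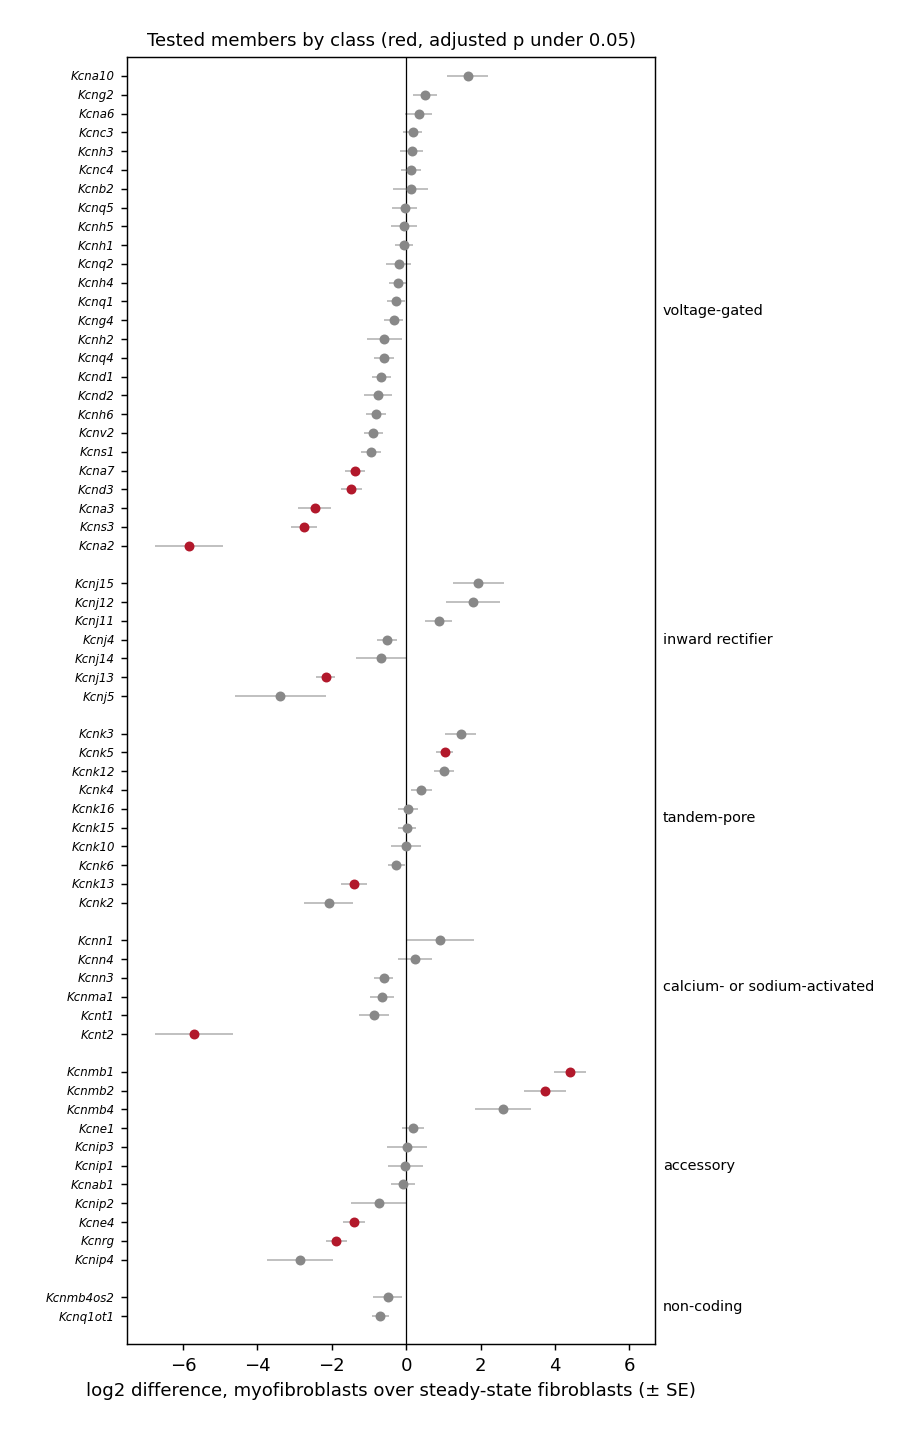
Log2 difference of myofibroblasts over steady-state fibroblasts (horizontal axis, with limma's SE as bars) for 62 of the 63 tested potassium channel genes, grouped by class and ordered within it. Red points, 3 to the right of 0 and 10 to the left, have an adjusted p under 0.05. For Kcnmb1, Kcnmb2, Kcnmb4, Kcna10, Kcnj12, Kcnj15 and Kcnk2, 1 group lies below background, so their plotted size has no meaning beyond a bound.

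The promoter windows of 4 genes that carry this comparison are printed here: Kcnmb1 and Kcnmb2, the BK beta subunits that rose, and Kcns3 and Kcnj13, a silent subunit and an inward rectifier that fell. Each runs 5′ to 3′ on the gene's strand, from 250 bases before to 50 after the annotated start, in RefSeq's mouse build GRCm38.p6, and capitals mark motif matches on either strand. RefSeq windows were found for 71 of the 97 genes.
Kcnmb1 (chr11:33962763-33963062, plus strand): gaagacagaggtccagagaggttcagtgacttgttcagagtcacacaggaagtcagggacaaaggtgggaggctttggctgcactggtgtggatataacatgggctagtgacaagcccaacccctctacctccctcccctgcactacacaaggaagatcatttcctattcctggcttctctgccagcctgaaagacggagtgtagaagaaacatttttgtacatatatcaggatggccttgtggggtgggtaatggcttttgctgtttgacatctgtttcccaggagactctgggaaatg
Kcnmb2 (chr3:31902453-31902752, plus strand): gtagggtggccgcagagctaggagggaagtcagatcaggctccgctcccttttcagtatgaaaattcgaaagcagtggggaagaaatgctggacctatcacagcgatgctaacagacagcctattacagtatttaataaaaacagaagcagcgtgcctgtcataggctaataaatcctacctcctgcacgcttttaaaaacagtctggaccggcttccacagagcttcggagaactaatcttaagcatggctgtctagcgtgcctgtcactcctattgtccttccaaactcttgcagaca
Kcns3 (chr12:11150793-11151092, minus strand): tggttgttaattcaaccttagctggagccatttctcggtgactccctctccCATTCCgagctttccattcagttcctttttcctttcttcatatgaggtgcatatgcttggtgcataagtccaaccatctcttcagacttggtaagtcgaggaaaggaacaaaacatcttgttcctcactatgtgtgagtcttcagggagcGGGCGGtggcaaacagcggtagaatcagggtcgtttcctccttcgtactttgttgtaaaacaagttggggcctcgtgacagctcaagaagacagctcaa
Kcnj13 (chr1:87394680-87394979, minus strand): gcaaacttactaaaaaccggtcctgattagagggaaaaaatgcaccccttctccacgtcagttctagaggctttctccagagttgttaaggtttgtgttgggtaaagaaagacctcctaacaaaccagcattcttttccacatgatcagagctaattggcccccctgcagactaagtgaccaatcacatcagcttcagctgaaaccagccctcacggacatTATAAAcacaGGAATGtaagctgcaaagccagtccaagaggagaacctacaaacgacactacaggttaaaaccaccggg

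The motifs searched were TATAAA (the TATA box), GGGCGG (the GC box), GGAATG (bound by TEAD factors), TGANTCA (bound by AP-1) and the CArG box, bound by serum response factor. The windows of Kcnmb1 and Kcnmb2 held none of these letters. The window of Kcns3 shown, 1 of its 2, held a GC box from -49 to -44 and a TEAD motif on the other strand from -199 to -194, counted from the start site. The window of Kcns3 not shown held GC boxes from -16 to -11, -6 to -1 and 27 to 32, and none of the other motifs. The window of Kcnj13 held a TATA box from -29 to -24 and a TEAD motif from -19 to -14. Of all 32851 windows of this length, 13.6% hold the TATA letters, 35.7% the GC box, 14.7% the TEAD motif, 7.81% the AP-1 motif and 1.63% a CArG box. Of the 96 windows of potassium channel genes the shares were 5.21%, 47.9%, 14.6%, 4.17% and 0%.

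Of 4 beta subunits of the BK channel, 2 were called higher in myofibroblasts than in fibroblasts, Kcnmb1 and Kcnmb2. Kcnmb1, the beta1 subunit of smooth muscle, had relative signals of 0.285 and 0.123 in myofibroblasts, 0.00818 and 0.00959 in fibroblasts, and 0.175 and 0.157 in homogenates. The fibroblast arrays were both below background and the other 4 above it, so myofibroblasts were at least 4.38-fold higher than fibroblasts (limma adjusted p = 0.00448). This bound, like those below, sets the bright group against the detection limit of each dim array, the dimmest probe read there as well above background. Kcnmb2, the beta2 subunit, which inactivates the channel, had 0.0716 and 0.227 in myofibroblasts, 0.00888 and 0.0103 in fibroblasts, and 0.628 and 0.823 in homogenates. Again only the fibroblasts lay below background, and the myofibroblasts were at least 2.98-fold higher (adjusted p = 0.0137). Against homogenate, Kcnmb2 in myofibroblasts was lower, at -2.49 ± 0.56 (adjusted p = 0.0268), while Kcnmb1 differed by 0.18 ± 0.44 (adjusted p = 0.787). The arrays of the myofibroblast group were over 2-fold apart for both genes, with the first array higher for Kcnmb1 and the second for Kcnmb2. With normexp background correction the call of Kcnmb2 between the sorted groups ended (adjusted p = 0.0825). A dimmer probe of Kcnmb2, above background on 1 fibroblast array, gave 0.76 ± 0.40 between the sorted groups (adjusted p = 0.230 over all probes). In myofibroblasts against homogenate it gave -0.37 ± 0.40 and did not pass (adjusted p = 0.540 over all probes). The other probe of Kcnmb1 was below background on every array and was not tested. It read 0.0225 and 0.0117 in myofibroblasts and 0.00870 and 0.0289 in fibroblasts.

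Kcnmb4, a beta subunit best known in neurons, was above background only on the myofibroblast arrays, at 0.0687 and 0.122. It read 0.0114 and 0.0199 in fibroblasts and 0.0330 and 0.00770 in homogenates, and was not called in either comparison (at least 2.14-fold over fibroblasts, adjusted p = 0.0688, and at least 2.35-fold over homogenate, adjusted p = 0.0591). Kcnmb3 was below background on all 6 arrays. The BK pore itself, Kcnma1, had 0.803 and 0.691 in myofibroblasts, 0.909 and 1.52 in fibroblasts, and 1.60 in each homogenate. Every myofibroblast value lay below every fibroblast value, and the difference of -0.66 ± 0.33 did not pass (adjusted p = 0.202). With the mean of all its probes it was 0.46 (adjusted p = 0.277). The gamma subunits belong to another gene family: Lrrc55 had 0.279 and 0.358 in myofibroblasts, 0.0413 and 0.0617 in fibroblasts, and 0.0488 and 0.0380 in homogenates. It was higher in myofibroblasts by 2.65 ± 0.32 than in fibroblasts (adjusted p = 0.00758) and by 2.87 ± 0.32 than in homogenate (adjusted p = 0.00273). Lrrc26 had 0.00907 and 0.00951 in myofibroblasts, both below background, 0.0480 and 0.0255 in fibroblasts, and 0.0531 and 0.0526 in homogenates, and was called lower in myofibroblasts than in homogenate (adjusted p = 0.00604). Lrrc38 differed by -0.28 ± 0.26 from fibroblasts and by -0.40 ± 0.26 from homogenate, which did not pass (adjusted p = 0.469 and 0.286). Lrrc52 was below background on every array.

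Between the sorted groups most smooth muscle and pericyte markers tested were higher in myofibroblasts, as Kcnmb1 and Kcnmb2 were. Of 6 such markers, 4 of 5 tested were called higher in myofibroblasts than in fibroblasts (Myh11, Cnn1, Des and Cspg4) and 0 lower. Notch3 did not pass, at 0.15 ± 0.26 (adjusted p = 0.698), and Rgs5 was not tested. Of the cardiac muscle markers 2 of 5 were called higher (Actc1 and Tnnt2), and all 6 summed to 17.7 and 18.8 in myofibroblasts, 1.28 and 0.969 in fibroblasts, and 5.69 and 4.76 in homogenates. Myh6, Tnni3 and Nppa read lower, at -0.28 ± 0.65, -2.46 ± 1.43 and -1.25 ± 1.11, without a call (adjusted p = 0.783, 0.267 and 0.454). Myl7 was below background on both myofibroblast arrays. Most of the myofibroblast sums was Actc1, at 13.2 and 14.4, and Tnnt2, at 3.77 and 3.99. All 4 markers of dividing cells were called higher as well, and so were 2 of 4 tested markers of neurons and Schwann cells (Tubb3 and S100b). Other markers were lower, as most called channel genes were: of 4 epithelial markers tested 2 were called lower in myofibroblasts and 0 higher, Scgb1a1 at -2.81 ± 0.37 and Sftpc at -1.34 ± 0.23 (adjusted p = 0.00960 and 0.0187). Of the 6 fibroblast markers Col1a1 and Col1a2 were called higher, and Pdgfra and Dcn lower, at -2.36 ± 0.39 and -2.34 ± 0.24 (adjusted p = 0.0180 and 0.00456). Pdgfra encodes CD140a, on which the fibroblasts were gated. The part of these markers in the results was not tested. In such bulk samples, more cells of a type and more RNA per cell cannot be told apart.

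**Figure D2:**
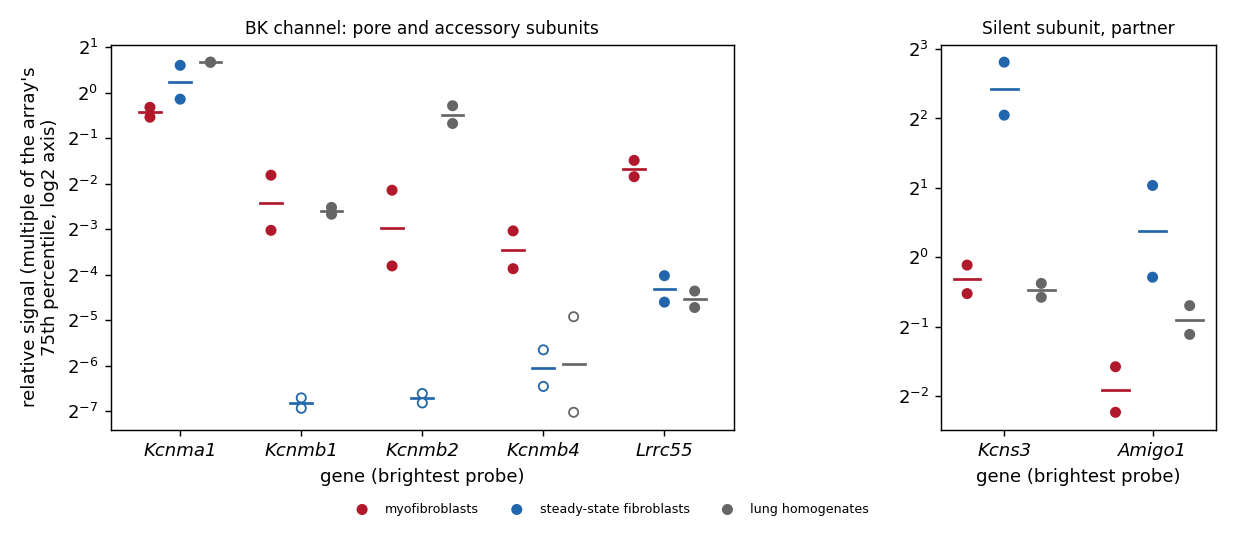
Relative signal on each array (log2 axis) of the BK pore Kcnma1 with its beta subunits and Lrrc55, and of the silent subunit Kcns3 and the channel partner Amigo1, in myofibroblasts (red), steady-state fibroblasts (blue) and homogenates (grey). Lines mark geometric means of 2 arrays and open points lie below background: the fibroblast points of Kcnmb1 are at 0.00818 and 0.00959, while those of Kcns3 are at 7.02 and 4.14.

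By the brightest probe of each gene, voltage-gated subunits were lower in myofibroblasts wherever they passed the test. A dimmer probe of Kcnh1, given below, was called higher. Kcns3, a silent subunit that alters the pores it joins, had relative signals of 0.926 and 0.696 in myofibroblasts, 7.02 and 4.14 in fibroblasts, and 0.771 and 0.671 in homogenates. The fall in myofibroblasts was -2.75 ± 0.35 (adjusted p = 0.00835), and myofibroblasts and homogenates differed by 0.16 ± 0.35 (adjusted p = 0.763). Amigo1, an adhesion protein that accompanies voltage-gated channels and is no Kcn gene, had 0.336 and 0.213 in myofibroblasts, 2.05 and 0.820 in fibroblasts, and 0.617 and 0.463 in homogenates. It was called lower in myofibroblasts than in fibroblasts, at -2.28 ± 0.51 (adjusted p = 0.0379).

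Of 5 tested members of the Kv1 family, which open at small depolarisations, 3 were called lower and 0 higher. Over all genes 8.01% were lower and 9.21% higher. Kcna2 had 0.0181 and 0.0673 in myofibroblasts, 1.0 and 3.99 in fibroblasts, and 0.354 and 0.745 in homogenates, with the first myofibroblast array below background. The groups did not overlap, and the fitted difference between the sorted groups was -5.84 ± 0.91 (adjusted p = 0.0151). With 1 dim array its size is loosely set: it ran from -6.84 to -4.85 as each array was left out, and was -3.10 with normexp background correction. Kcna3, best known as the voltage-gated channel of T cells, had 0.0647 and 0.0757 in myofibroblasts, 0.263 and 0.569 in fibroblasts, and 3.26 and 2.08 in homogenates. It was lower, at -2.47 ± 0.45 in myofibroblasts than in fibroblasts (adjusted p = 0.0226), and homogenates stood above both. With normexp that difference was -0.98 and did not pass (adjusted p = 0.0768). Kcna7, a further Kv1 subunit named here after its values were seen, had 6.52 and 5.11 in myofibroblasts, 16.1 and 13.8 in fibroblasts, and 8.79 and 9.94 in homogenates (-1.37 ± 0.27 between the sorted groups, adjusted p = 0.0257). Kcna6 differed by 0.34 ± 0.36 (adjusted p = 0.531) and Kcna10 was at least 1.25-fold higher (adjusted p = 0.0931), and neither passed.

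Kcnd3, a Kv4 pore that carries fast transient current in heart and neurons, had 0.247 and 0.206 in myofibroblasts, 0.670 and 0.591 in fibroblasts, and 0.323 and 0.438 in homogenates. Its difference between the sorted groups was -1.48 ± 0.28 (adjusted p = 0.0243). Kcnip4, a calcium-binding partner of Kv4 pores, read 0.00946 and 0.0605 in myofibroblasts, 0.207 and 0.145 in fibroblasts, and 0.419 and 0.730 in homogenates. Its difference of -2.85 ± 0.88 did not pass (adjusted p = 0.0794), with 1 myofibroblast array below background. Of the 27 voltage-gated subunits tested between the sorted groups, 6 were lower, 0 higher, and the rest did not pass. That is 22.2% lower, against 8.01% of all genes, and 0% higher, against 9.21%.

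Among inward rectifiers, 1 of 7 tested was called (14.3%, against 17.2% of all genes). Kcnj13, the weakly rectifying Kir7.1 channel of ion-transporting epithelia, had 0.193 and 0.228 in myofibroblasts, 1.02 and 0.862 in fibroblasts, and 0.750 and 0.853 in homogenates. Myofibroblasts were lower than fibroblasts, at -2.16 ± 0.26 (adjusted p = 0.00681) and lower than homogenate, at -1.93 ± 0.26 (adjusted p = 0.00475), while fibroblasts and homogenate differed by 0.23 ± 0.26 (adjusted p = 0.585). Kcnj5, a G-protein-gated channel, had 0.0364, below background, and 0.102 in myofibroblasts and 0.954 and 0.431 in fibroblasts. Its fitted difference of -3.39 ± 1.23 did not pass (adjusted p = 0.111). Kcnj15, at 0.0828 and 0.0477 in myofibroblasts, was below background on both fibroblast arrays and was not called between the sorted groups (adjusted p = 0.106).

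Of 10 tandem-pore leak channels tested, 1 was higher and 1 lower. Over all genes 9.21% were higher and 8.01% lower, so the class lay close to the background. Kcnk5, an acid-sensitive background channel known from kidney, had 0.203 and 0.179 in myofibroblasts, 0.0953 and 0.0908 in fibroblasts, and 0.161 and 0.154 in homogenates, a rise of 1.03 ± 0.24 over fibroblasts (adjusted p = 0.0394). Kcnk13, a leak channel studied in microglia, had 0.148 and 0.241 in myofibroblasts, 0.584 and 0.430 in fibroblasts, and 0.114 and 0.129 in homogenates (-1.41 ± 0.34, adjusted p = 0.0458). Kcnk3, the acid-sensitive TASK-1 channel of pulmonary artery muscle, had 0.672 and 0.730 in myofibroblasts, 0.173 and 0.372 in fibroblasts, and 0.524 and 0.433 in homogenates. Both myofibroblast values stood above all others, but the difference of 1.47 ± 0.41 did not pass (adjusted p = 0.0643). Kcnk2, a stretch-sensitive leak channel, was the single potassium channel gene above background on both fibroblast arrays and on neither myofibroblast array, and it was not called (adjusted p = 0.0842).

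Of 6 tested pores opened by calcium or sodium, 1 was called (16.7%, against 17.2% of all genes). Kcnt2, a sodium-activated channel, had 0.10 and 0.0104 in myofibroblasts, 2.09 and 1.36 in fibroblasts, and 0.0862 and 0.0543 in homogenates. The second myofibroblast array was below background, and the fibroblast arrays stood above all others (fitted difference -5.71 ± 1.04 between the sorted groups, adjusted p = 0.0223). It ran from -7.34 to -4.07 as each array was left out, and was -2.48 with normexp. Its relative Kcnt1 read -0.87 ± 0.40 (adjusted p = 0.179), and Kcnn1, a small-conductance calcium-activated channel, 0.91 ± 0.90 (adjusted p = 0.504), with 0.0912 and 0.648 on the fibroblast arrays. Without the first of these arrays the difference of Kcnn1 was -0.51.

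The remaining accessory subunits that passed were lower in myofibroblasts. Kcne4, which inhibits several voltage-gated channels, had 1.02 and 0.729 in myofibroblasts, 2.11 and 2.46 in fibroblasts, and 0.220 and 0.288 in homogenates. Myofibroblasts therefore lay between the others, lower than fibroblasts, at -1.41 ± 0.30 (adjusted p = 0.0329) and higher than homogenate by 1.77 ± 0.30 (adjusted p = 0.0108). Kcnrg, which lowers the assembly of voltage-gated channels, had 0.0842 and 0.0581 in myofibroblasts, 0.236 and 0.281 in fibroblasts, and 1.43 and 1.48 in homogenates (-1.88 ± 0.29, adjusted p = 0.0143). Another probe of Kcnrg gave -1.73 ± 0.49 and did not pass (adjusted p = 0.0675 over all probes). Of 11 accessory subunits tested between the sorted groups, 2 were higher and 2 lower, 18.2% each, against 9.21% and 8.01% of all genes.

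**Figure D3:**
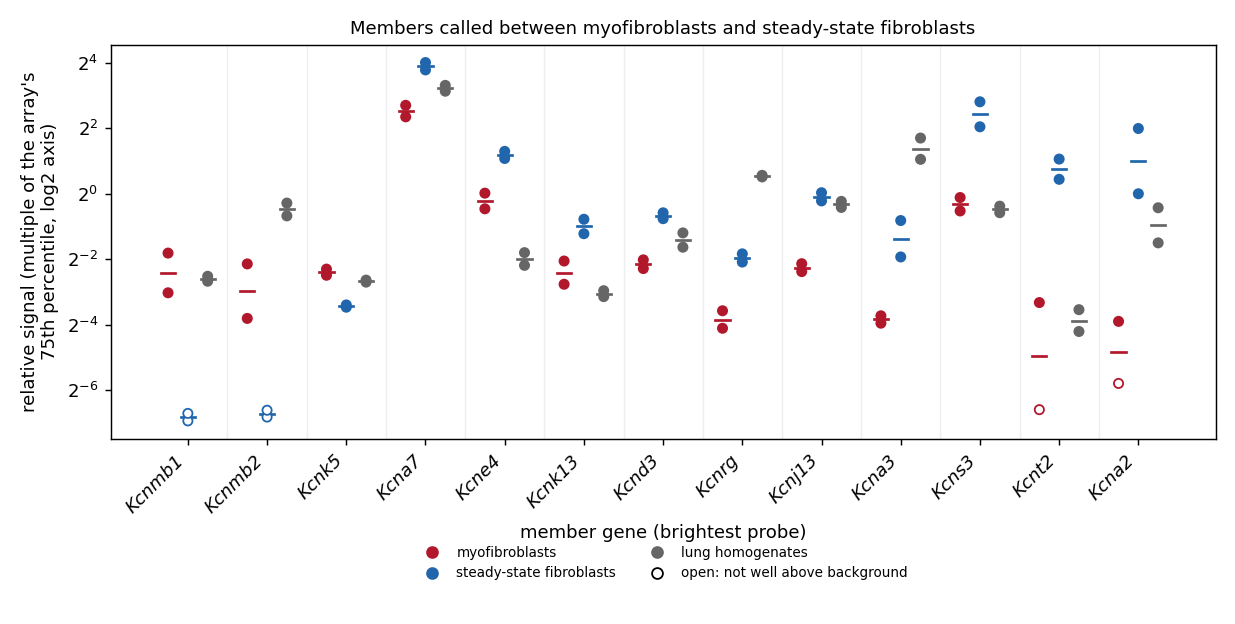
Relative signal (log2 axis) of 13 of the 14 potassium channel genes called between the sorted groups, ordered by their difference, on each array of myofibroblasts (red), steady-state fibroblasts (blue) and homogenates (grey). Lines mark geometric means of 2 arrays and open points lie below background. The 3 genes at the left are higher in myofibroblasts, and for Kcna2 at the far right the fibroblast arrays read 1.0 and 3.99.

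The calls between the sorted groups were read again with each array left out. Those of 3 genes, Kcnj13 and Kcnmb1 among them, held when any 1 of the 6 arrays was left out. Kcna3, Kcna7 and Kcnk5 lost their calls without either myofibroblast or either homogenate array (adjusted p up to 0.0960, 0.120 and 0.141), and these arrays or the first fibroblast array ended those of Kcnd3 and Kcnk13 (up to 0.115 and 0.152). The call of Kcne4 ended without any 1 array (up to 0.144), that of Kcnrg without the second myofibroblast or either homogenate array (up to 0.0685), and that of Kcnt2 without the first fibroblast or either homogenate array (up to 0.0806). Kcna2 lost its call without the first myofibroblast array (adjusted p = 0.0617), Kcns3 without the second (0.0512), and Kcnmb2 without the first fibroblast array (0.0526). The count of called potassium channel genes was 6 without either homogenate array, 7 without either myofibroblast array, 13 without the first fibroblast array and 23 without the second. Among 12 alternatives that changed another choice, Kcnk5 was called under 5, Kcnk13 under 6, Kcne4 under 8 and Kcnd3 under 9. With array weights per group, which let the groups differ in spread, it was 5.

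Of 20 other probes tested for these genes, 7 gave another call and 0 an opposite one. The brightest probe of Kcnh1, an ether-a-go-go channel, read -0.06 ± 0.26 between the sorted groups (adjusted p = 0.892 over all probes). Another of its probes had 0.0977 and 0.0635 in myofibroblasts and was below background in fibroblasts (adjusted p = 0.00700, higher). Kcnn4, the intermediate-conductance calcium-activated channel, read 0.24 ± 0.46 by its brightest probe (adjusted p = 0.732), while a dimmer one had 0.0793 and 0.122 in myofibroblasts and was below background in fibroblasts (adjusted p = 0.0237, higher). For Kcnn3, a small-conductance channel, the brightest probe read -0.60 ± 0.26 (adjusted p = 0.164) and a dimmer one, below background in myofibroblasts, was called lower (adjusted p = 0.0290). Kcnq1ot1, the imprinted non-coding transcript of the Kcnq1 locus, had 24.5 and 23.1 in myofibroblasts, 38.3 and 38.6 in fibroblasts, and 31.6 and 35.5 in homogenates by its brightest probe, and did not pass (-0.70 ± 0.23, adjusted p = 0.0955). Of its other probes, 1 was called lower at -3.49 ± 0.36 (adjusted p = 0.00556 over all probes), with 1 myofibroblast array below background. Kcnmb4os2, the other non-coding transcript tested, read -0.49 ± 0.39 (adjusted p = 0.394).

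Many potassium channel genes were not measurable in these samples. They were above background on both arrays for 57 genes in myofibroblasts (58.8%), 56 in fibroblasts (57.7%) and 69 in homogenates (71.1%), against 66.0%, 65.7% and 72.7% of all genes. On all 6 arrays there were 49 (50.5%, against 61.1% of all genes). The 16 below background on every array (16.5%, against 16.6%) included Kcna1 and Kcna4, the silent subunits Kcnf1 and Kcns2, the rectifiers Kcnj1, Kcnj6, Kcnj10 and Kcnj16, and Kcnn2. For 8 more, among them Kcne3 and Kcnj9, no group had both arrays above background. Beside Kcnmb1, Kcnmb2, Kcnmb4 and Kcnj15, the genes above background on both myofibroblast arrays and neither fibroblast array were Kcna10 and Kcnj12, and these were not called (adjusted p = 0.0931 and 0.139).

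**Figure D4:**
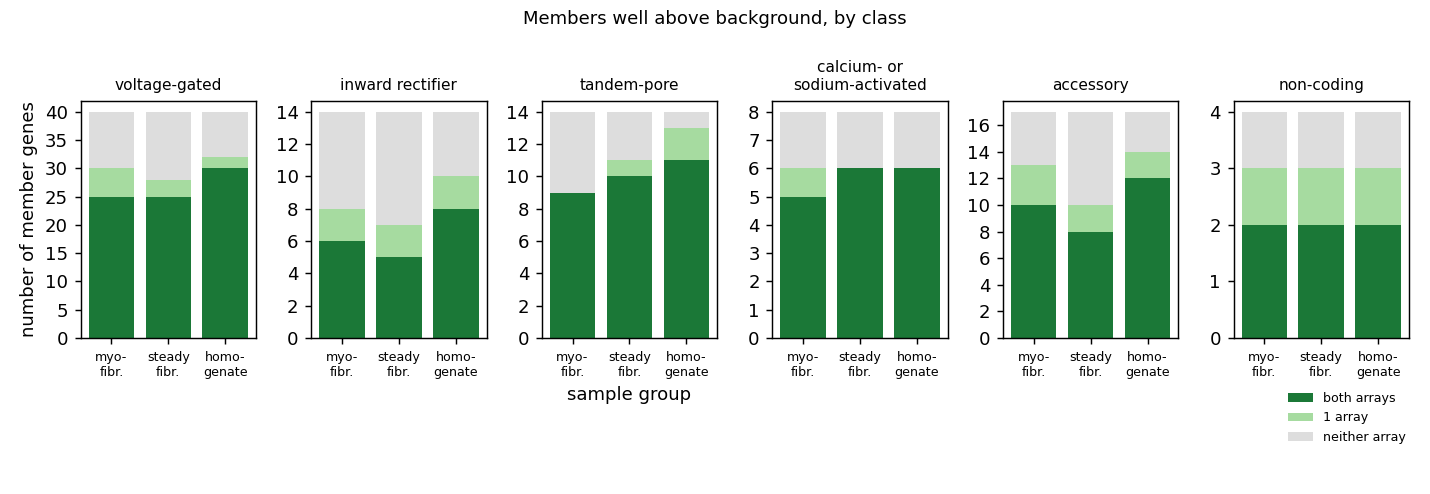
Number of potassium channel genes (vertical axis, own scale in each panel) well above background on both arrays, 1 array or neither array of myofibroblasts, steady-state fibroblasts and homogenates, in panels by class. Among voltage-gated subunits 25, 25 and 30 of 40 were above background on both arrays, and among accessory subunits 10, 8 and 12 of 17.

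Against whole lung, most called genes were lower in the sorted cells. In myofibroblasts 20 of 72 tested genes were called, 1 higher (Kcne4, above) and 19 lower. Over all genes 26.9% were called, 11.9% higher and 15.0% lower, against 27.8% of the potassium channel genes, 1.39% higher and 26.4% lower. The median difference was -0.50, against -0.01 over all genes. With median scaling, which shifted the median of all genes to 0.39, the split was 5 higher and 16 lower. In fibroblasts 19 of 71 were called, 5 higher and 14 lower, which is 26.8% against a background of 19.9%, 7.04% higher against 8.09% and 19.7% lower against 11.8%. Their median was -0.12, against 0.03 over all genes. Unadjusted p was under 0.05 for 30 genes in myofibroblasts (41.7%, against 41.6% of all genes) and 27 in fibroblasts (38.0%, against 32.4%). Both comparisons share the homogenate arrays.

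Several genes read in whole lung were below background in both sorted groups. Kcne2, an accessory subunit of epithelial and cardiac channels, had 0.00918 and 0.00916 in myofibroblasts, 0.00894 and 0.0103 in fibroblasts, and 0.804 and 0.701 in homogenates. It was at least 18.6-fold lower in myofibroblasts (adjusted p = 0.000144) and at least 17.5-fold lower in fibroblasts (adjusted p = 0.000158). Kcnj2, the strong inward rectifier Kir2.1 of endothelium and muscle, read 0.817 and 0.801 in homogenates and was below background on every sorted array, at least 20.0-fold lower in myofibroblasts and 18.9-fold in fibroblasts (adjusted p = 0.00440 and 0.00405). Kcnk1, a leak channel, was at least 9.21-fold lower in myofibroblasts and 8.68-fold in fibroblasts (adjusted p = 0.000381 and 0.000513), and Kcnh7, of the ERG family, at least 5.76-fold and 5.43-fold (adjusted p = 0.000397 and 0.000639). With Kcna5, these were the 5 genes above background on both homogenate arrays and on no sorted array (5.15% of the potassium channel genes, against 2.98% of all genes).

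Kcnj15, an inward rectifier of kidney epithelium, had 0.0828 and 0.0477 in myofibroblasts, 0.00829 and 0.0325 in fibroblasts, and 1.15 and 0.908 in homogenates. Against homogenate it differed by -4.02 ± 0.68 in myofibroblasts (adjusted p = 0.0110) and was at least 23.8-fold lower in fibroblasts (adjusted p = 0.00329). Kcnrg was lower than homogenate, at -4.38 ± 0.29 in myofibroblasts and -2.50 ± 0.29 in fibroblasts (adjusted p = 0.000519 and 0.00335). Kcna3 was lower, at -5.22 ± 0.45 in myofibroblasts and -2.75 ± 0.45 in fibroblasts (adjusted p = 0.00114 and 0.0112). Kcnip4 was lower in myofibroblasts, at -4.53 ± 0.88 (adjusted p = 0.0170). The BK beta genes Kcnmb1 and Kcnmb2 were at least 3.87-fold and 16.8-fold lower in fibroblasts than in homogenate (adjusted p = 0.00227 and 0.00150), and that call of Kcnmb1 ended with normexp background correction (adjusted p = 0.10) and with the mean of all its probes (adjusted p = 0.0544). The dimmer probe of Kcnmb2 gave -1.13 ± 0.40 in fibroblasts against homogenate and did not pass (adjusted p = 0.124 over all probes). Of the endothelial and the epithelial markers 5 of 5 and 6 of 6 were called lower in each sorted group than in homogenate, and their part in these results was not tested.

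Among the 5 genes higher in fibroblasts than in homogenate were Kcnt2 at 4.62 ± 1.04, Kcne4 at 3.18 ± 0.30, Kcns3 at 2.91 ± 0.35 and Kcnk13 at 2.05 ± 0.34 (adjusted p = 0.0318, 0.00172, 0.00384 and 0.0117). These were also lower in myofibroblasts than in fibroblasts, with the values above, and both comparisons share the fibroblast arrays. A set of 14 genes was called against homogenate in both sorted groups: Kcne4 higher, and the other 13 lower. Besides genes already given, these were Kcnc4, Kcnq1, Kcnq5, Kcnn3 and Kcna5, named after their values were seen. Kcnn3, for example, had 0.288 and 0.239 in myofibroblasts, 0.426 and 0.373 in fibroblasts, and 1.45 and 1.51 in homogenates, and Kcnq5, of the M-current family, had 0.115 and 0.168 in myofibroblasts, 0.133 and 0.154 in fibroblasts, and 0.661 and 1.0 in homogenates. With the mean of all its probes Kcnq5 lost both calls (adjusted p = 0.938 and 0.278), and its difference in myofibroblasts turned to 0.06. By its brightest probe Kcnq1 differed by -1.61 ± 0.25 in myofibroblasts and -1.34 ± 0.25 in fibroblasts. It lost both calls with normexp (adjusted p = 0.0506 in myofibroblasts and 0.0885 in fibroblasts). Leaving out single arrays, either homogenate array among them, also ended these calls. Its other probes were called lower in both groups too (adjusted p up to 0.0217 over all probes). They read -5.14, -4.55 and -1.71 in myofibroblasts, and -5.57, -5.40 and -1.49 in fibroblasts. Kcna5 lost its call in myofibroblasts under 3 of 11 other settings and without 4 of the 6 arrays in turn (up to 0.137), and in fibroblasts under 7 of 11 and without 5 of 6 (up to 0.264).

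**Figure D5:**
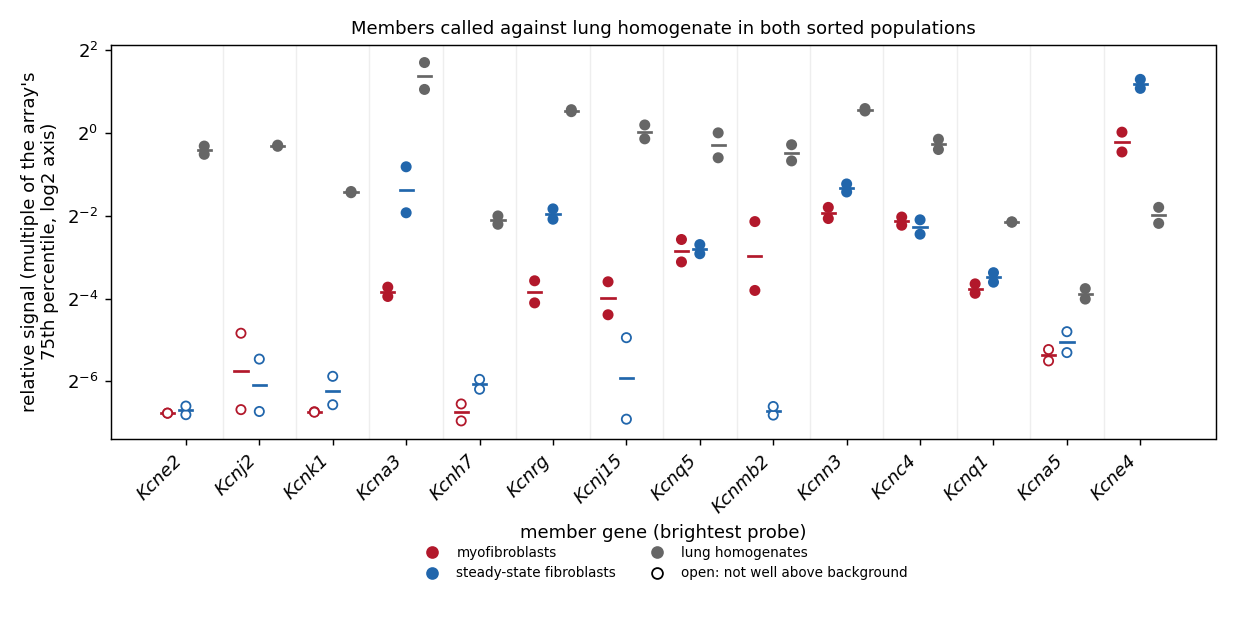
Relative signal (log2 axis) of the 14 potassium channel genes called against homogenate in both sorted groups, ordered by the difference of myofibroblasts over homogenate, in myofibroblasts (red), steady-state fibroblasts (blue) and homogenates (grey). Lines mark geometric means of 2 arrays and open points lie below background. The homogenate arrays are the highest for every gene except Kcne4, at the far right.

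Against homogenate, 8 of the 20 calls in myofibroblasts and 10 of the 19 in fibroblasts held when any 1 array was left out. Leaving out either homogenate array ended the calls of Kcnip4 (adjusted p up to 0.101) and Kcnmb2 (0.148) in myofibroblasts and of Kcnk13 (0.0911) and Kcnn3 (0.0616) in fibroblasts. In myofibroblasts Kcne4 lost its call without the first myofibroblast or either homogenate array (adjusted p up to 0.0957), Kcnj15 without the second myofibroblast or either homogenate array (0.0689), and Kcnj13 without the second homogenate array (0.0583). In fibroblasts Kcnt2 lost its call without either fibroblast or either homogenate array (up to 0.158), Kcna3 without the first homogenate array (0.0787) and Kcnq5 without the second (0.0519). Sorted samples and homogenates lay in different rows of the 1 slide, so slide row and sorting cannot be told apart. Myofibroblasts were also taken after bleomycin and homogenates from untreated lungs. In that comparison bleomycin, sorting and slide row cannot be told apart.

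Genes that work beside potassium channels were read from lists of partners. Of 19 tested partners of potassium handling, 3 were higher in myofibroblasts than in fibroblasts (Lrrc55 and Atp1b1 among them) and 2 lower (Amigo1 and Abcc9), which is 15.8% against a background of 9.21% and 10.5% against 8.01%. Atp1b1, the beta1 chain of the sodium pump, had 0.343 and 0.172 in myofibroblasts, 0.0564 and 0.0128 in fibroblasts, and 4.43 and 3.94 in homogenates (3.17 ± 0.75 between the sorted groups, adjusted p = 0.0420), with 1 fibroblast array below background. Against homogenate 3 of 20 partners were higher in myofibroblasts and 4 lower, which is 15.0% against 11.9% and 20.0% against 15.0%. In fibroblasts 2 of 19 were higher and 1 lower, 10.5% against 8.09% and 5.26% against 11.8%.

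Among 23 tested genes of calcium entry and release, 1 was higher in myofibroblasts than in fibroblasts and 5 were lower, which is 4.35% against 9.21% of all genes and 21.7% against 8.01%. Piezo1, a stretch-activated channel, had 1.72 and 2.33 in myofibroblasts, 0.799 and 0.583 in fibroblasts, and 1.34 in each homogenate (1.55 ± 0.30 between the sorted groups, adjusted p = 0.0250). Cacna1d, an L-type calcium channel pore, had 0.940 and 0.686 in myofibroblasts, 6.78 and 4.64 in fibroblasts, and 0.565 and 0.992 in homogenates (-2.80 ± 0.40, adjusted p = 0.0113). The pore gene Cacna1a, the channel subunit gene Cacnb2, the cation channel gene Trpc1 and the calcium sensor gene Stim1 were lower, at -2.33 ± 0.50, -1.77 ± 0.35, -1.41 ± 0.35 and -1.23 ± 0.28 (adjusted p = 0.0328, 0.0269, 0.0491 and 0.0402). Cacna1c, the main L-type pore of smooth muscle, differed by 0.13 ± 0.33, which did not pass the test (adjusted p = 0.798). Of 8 chloride and sodium channel genes, 0 were higher and 2 lower in myofibroblasts, 0% against 9.21% of all genes and 25.0% against 8.01%. The lower ones were Scn3a at -4.44 ± 0.65 (adjusted p = 0.0125) and Scn7a at -3.03 ± 0.32 (adjusted p = 0.00495).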

How the data were processed

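RNA of 2 samples per group was hybridised to 6 1-colour arrays on 1 slide, read in 1 scan. Intensity values were taken from the deposited scanner files, which the authors made with Agilent Feature Extraction 12.0.3.1, per the file headers: background-subtracted, detrended and not scaled between arrays. Of 56605 probes, 32994 matched 1 RefSeq gene by accession. Outlier spots were dropped and spots of a probe averaged. Log2 intensity minus that of each array's 75th percentile was fitted by limma 3.58.1 (R 4.3.3, moderated two-sided test), all 6 arrays in 1 fit with 3 residual degrees of freedom, 5.57 with the prior. The fit was tested on simulated data.

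The members and gene lists were chosen with earlier results of these data known. Named are the called members, at most 10 each way between the sorted groups and 8 each way against homogenate, the 3 most changed tested members of each class, and genes whose probes disagree. Of the genes so selected or listed, 2 are not reported here, though they enter the counts. Alternatives changed the background correction (normexp, on the median spot signal, offset 50), scaling, filter, probe rule, arrays fitted, variance prior, threshold and replicate block, used the authors' deposited table (the same intensity values times 1 constant per array), or left out each array.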

Additional observations from a re-analysis of the deposited data

How the results depend on the processing

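Of the called potassium channel genes only Kcnq5 changed direction under any alternative in which it was tested, in myofibroblasts against homogenate with the mean of all its probes, to 0.06 against -2.55. Differences that were not called did so more often, for 26 potassium channel genes between the sorted groups and for 32 and 27 against homogenate. In the authors' table, Kcns3 and Kcnmb1 in myofibroblasts against homogenate read -0.34 and -0.32, and Kcnn4 and Cacna1c between the sorted groups -0.17 and -0.28. Of the values of genes selected by the naming rule, 675 kept their side of the threshold, 80 lost it and 17 gained it. Between myofibroblasts and fibroblasts, 14 potassium channel genes were called in the main setting, 22 in the authors' deposited table, 5 with array weights per group, 24 at an adjusted p under 0.1, and 6 to 23 without 1 array. Over all genes 2758 were called, 1264 with only the 4 sorted arrays, 1142 with array weights per group, 4755 at an adjusted p under 0.1, and 1030 to 5738 without 1 array. Between myofibroblasts and homogenate, 20 potassium channel genes were called, 32 in the authors' table, 11 where all 4 arrays had to be above background, and 8 to 29 without 1 array. Over all genes 4614 were called, 7391 with only the 4 arrays compared, 7795 with array weights per group, and 1837 to 7212 without 1 array. Between fibroblasts and homogenate, 19 potassium channel genes were called, 11 where all 4 arrays had to be above background, and 12 to 26 without 1 array. Over all genes 3392 were called, 2027 where all 4 arrays had to be above background, and 1544 to 6159 without 1 array. The cause of these shifts was not tested, apart from the fewer genes tested under the stricter filter and the fewer arrays fitted. With the replicate number as a block the 3 comparisons called 12, 18 and 21 potassium channel genes (2229, 4045 and 3222 of all genes). The numbers are not stated to pair samples, and deviations of same-numbered samples correlated at 0.07, -0.01 and 0.04 over 13998 genes.

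Genes close to background limit these results: 34 of the 97 could not be tested between the sorted groups. Median scaling moved the median of all genes to 0.08, 0.39 and 0.30, and the authors' table to -0.47, -0.51 and -0.06, against -0.06, -0.01 and 0.03 in the main setting, so small differences from homogenate depend on the scaling.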

Other observations

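Several potassium channel genes sit next to each other in RefSeq's gene order. Kcna3, Kcna2 and Kcna10 follow each other: Kcna3 and Kcna2 were lower in myofibroblasts than in fibroblasts, while Kcna10 read 0.0436 and 0.0656 in myofibroblasts and was below background in fibroblasts and homogenates, without a call. Kcnip1, beside Kcnmb1, read 0.209 and 0.114 in myofibroblasts, 0.190 and 0.130 in fibroblasts, and 0.132 and 0.248 in homogenates (-0.03 ± 0.47 between the sorted groups, limma adjusted p = 0.973). Kcnj16, beside Kcnj2, was below background on every array, while Kcnj2 was read in both homogenates. Kcnj6, beside Kcnj15, was below background on every array as well.

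Arrays of a group lay over 2-fold apart for 6 of 57 potassium channel genes above background on both myofibroblast arrays, 8 of 56 in fibroblasts and 2 of 69 in homogenates (10.5%, 14.3% and 2.90%, against 7.84%, 23.5% and 2.83% of all genes). Kcna2 was 1 of the 8 in fibroblasts, at 1.0 and 3.99, and 1 of the 2 in homogenates, at 0.354 and 0.745.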
